A study of Rattus norvegicus with 6 samples.

Results

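DNA replication and mitosis genes encode the proteins with which a dividing cell copies its chromosomes and parts the copies. A list of 41 such genes, 17 of DNA replication and 24 of mitosis, was followed in the inner medulla of the rat kidney, the innermost zone, where the collecting ducts end. A gene was taken where the array annotation gave a probe set that symbol alone, and where a symbol had several, the brightest by its mean of the 6 arrays stood for the gene. This gave 35 of the 41 genes among 14168 measured genes, 15 of replication and 20 of mitosis. Mcm3, Mcm4, Birc5, Nuf2, Cenpe and Mki67 were not analysed here.

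All tissue came from male Sprague-Dawley rats that were kept in metabolic cages on a rationed diet with free water, and each of 3 groups had 2 arrays. In the withdrawal group the rats received dDAVP at 40 ng/h under the skin for 5 d, their pumps were then taken out of the neck under light enflurane anaesthesia, and the tissue was taken 3 h later. In the dDAVP group the same dose of dDAVP (desmopressin, a synthetic vasopressin analog that acts on the V2 receptor of the collecting duct) ran for 5 d. In the vehicle group the pump delivered saline at 1 µl/h for 5 d. Surgery for removal came with withdrawal alone, so the end of the infusion and the procedure cannot be told apart. Whether the 2 arrays of a group come from separate rats is not in the labels, so every p-value measures only the spread between these arrays.

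The replication genes act before and during S phase. The MCM proteins form the ring helicase that is loaded onto origins, GINS activates it, and PCNA clamps the polymerases to the template. The mitosis genes act later: CDK1 with the cyclins drives entry into mitosis, Aurora and Polo kinases build the spindle, and the checkpoint kinases hold the chromosomes until they are attached. In cultured mammalian cells the early genes are largely driven by E2F factors, and the late genes by the MuvB complex at CHR elements together with NF-Y at CCAAT boxes. Most cells of the adult rodent kidney are out of the cell cycle, so in a tissue extract fewer dividing cells and less of each messenger per dividing cell cannot be told apart.

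The promoter windows of 3 mitosis and 3 replication genes are shown as examples of the motifs that were counted over all members. Each window covers 250 bases before to 50 bases after the start of the gene in RefSeq, assembly GRCr8, and is written 5′ to 3′ on the strand of the gene. Capitals mark matches to the CHR element (TTTGAA or TTCGAA), the CCAAT box (CCAAT) and the E2F element (TTTCCCGC, TTTCGCGC, TTTGCCGC or TTTGGCGC). Both strands were searched, and a match on the other strand appears here as its reverse complement, so that a reversed CCAAT box reads ATTGG.
Cdk1, chr20:19265043-19265342, plus strand: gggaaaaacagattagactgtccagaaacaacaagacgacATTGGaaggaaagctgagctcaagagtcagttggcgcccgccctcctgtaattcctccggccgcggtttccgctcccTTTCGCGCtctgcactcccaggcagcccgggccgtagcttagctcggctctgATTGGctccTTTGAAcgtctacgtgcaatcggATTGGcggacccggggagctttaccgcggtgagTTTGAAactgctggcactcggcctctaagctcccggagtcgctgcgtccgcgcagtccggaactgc
Ccnb1, chr2:33655176-33655475, minus strand: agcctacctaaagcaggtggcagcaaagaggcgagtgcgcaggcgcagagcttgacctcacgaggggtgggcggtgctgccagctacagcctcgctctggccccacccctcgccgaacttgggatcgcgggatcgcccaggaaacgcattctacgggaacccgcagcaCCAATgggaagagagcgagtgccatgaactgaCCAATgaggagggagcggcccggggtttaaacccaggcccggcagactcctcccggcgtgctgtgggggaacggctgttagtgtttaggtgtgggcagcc
Ccnb2, chr8:79981609-79981908, minus strand: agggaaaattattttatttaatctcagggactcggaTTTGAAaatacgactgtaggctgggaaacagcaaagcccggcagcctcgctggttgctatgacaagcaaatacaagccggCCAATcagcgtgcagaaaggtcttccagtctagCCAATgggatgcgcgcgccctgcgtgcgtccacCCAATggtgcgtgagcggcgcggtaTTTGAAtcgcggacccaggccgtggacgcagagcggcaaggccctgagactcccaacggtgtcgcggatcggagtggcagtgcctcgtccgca
Mcm2, chr4:122918045-122918344, minus strand: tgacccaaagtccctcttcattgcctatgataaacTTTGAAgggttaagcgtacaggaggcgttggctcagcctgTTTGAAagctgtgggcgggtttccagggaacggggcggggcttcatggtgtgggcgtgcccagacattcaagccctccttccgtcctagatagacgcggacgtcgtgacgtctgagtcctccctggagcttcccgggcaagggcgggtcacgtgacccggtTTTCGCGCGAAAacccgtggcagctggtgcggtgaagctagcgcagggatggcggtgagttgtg
Mcm6, chr13:42404303-42404602, minus strand: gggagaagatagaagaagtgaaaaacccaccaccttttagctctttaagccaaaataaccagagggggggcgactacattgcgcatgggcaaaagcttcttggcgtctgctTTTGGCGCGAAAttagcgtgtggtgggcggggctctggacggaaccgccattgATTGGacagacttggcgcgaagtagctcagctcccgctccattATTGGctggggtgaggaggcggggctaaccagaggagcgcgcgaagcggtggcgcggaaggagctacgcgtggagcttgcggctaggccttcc
Pcna, chr3:139955771-139956070, minus strand: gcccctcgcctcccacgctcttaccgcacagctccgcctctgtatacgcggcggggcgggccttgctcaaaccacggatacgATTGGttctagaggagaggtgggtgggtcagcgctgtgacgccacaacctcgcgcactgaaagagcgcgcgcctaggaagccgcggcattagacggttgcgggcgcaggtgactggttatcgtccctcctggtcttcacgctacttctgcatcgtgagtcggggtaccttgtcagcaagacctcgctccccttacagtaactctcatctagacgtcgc

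The window of Cdk1, the mitotic kinase, held 2 CHR matches, 3 CCAAT matches and 1 E2F match. In Ccnb2, a B-type cyclin, 3 CCAAT matches and 2 CHR matches were found. Ccnb1, the other B-type cyclin, had 2 CCAAT matches and no CHR match of these letters. In Mcm2 and Mcm6, both helicase subunits, the E2F matches of the 2 strands overlap in a single stretch, and Mcm2 also had 2 CHR matches. Mcm6 held 2 CCAAT matches, and Pcna held 1 CCAAT match and no E2F match.

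A window was found for 16 of the 20 mitosis genes and 13 of the 15 replication genes. Rrm2, Ccne2, Ccna2, Aurkb, Tpx2 and Pbk had none. A CHR element lay in 10 of 16 mitosis promoters (62.5%) and 3 of 13 replication promoters (23.1%), against 17.3% of the 11697 array genes with a window. An E2F element lay in 2 of 16 mitosis promoters (12.5%), those of Cdk1 and Sass6, and in 8 of 13 replication promoters (61.5%), against 3.16% of array genes. A CCAAT box lay in 11 of 16 mitosis promoters (68.8%) and 9 of 13 replication promoters (69.2%), against 38.9% of array genes. CHR and CCAAT stood together in 8 mitosis promoters (50%) and 2 replication promoters (15.4%), against 7.22%. Over all 27457 genes with a window the shares were 21.0% for CHR, 39.6% for CCAAT, 8.57% for both and 2.37% for E2F. These are counts of short letter matches, and no binding was measured. The bar chart of motif shares shows the mitosis bar highest for CHR and the replication bar highest for E2F.

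**Figure D1:**
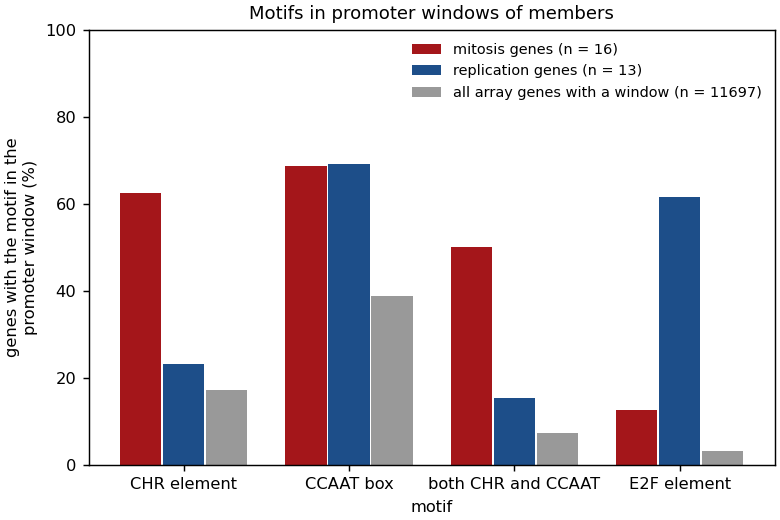
Percent of genes (vertical axis) with each motif (horizontal axis) in the 300-base promoter window, for 16 mitosis genes, 13 replication genes and 11697 array genes with a window. CHR was found in 62.5%, 23.1% and 17.3% of them, and E2F in 12.5%, 61.5% and 3.16%.

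The arrays held linear intensities, which were taken to log2 (all levels below are log2 intensities of a probe set, comparable between arrays and not between genes). Median intensities over all probe sets were 182 and 181 in withdrawal, 156 and 165 in dDAVP and 182 and 175 in vehicle. Aqp2, a water channel of collecting duct cells under the control of vasopressin, lay at 13.14 to 13.40 on the 6 arrays. The cortical genes Slc34a1 (phosphate transport) and Nphs1 (podocytes) lay at 7.16 to 7.38 and 6.66 to 7.02, and Umod, of the thick ascending limb, at 9.80 to 11.18. Since probe sets cannot be ranked against each other and their signal over background is unknown, these values do not measure how much of each cell type the tissue held. Among the mitosis genes, all but Sass6, vehicle replicate 1 and dDAVP replicate 2 stood apart from their group partners. The list medians of dDAVP against vehicle and of withdrawal against dDAVP are therefore given with all arrays and without that pair. Those of withdrawal against vehicle are given with all arrays and without vehicle replicate 1. Without the pair, dDAVP and vehicle hold 1 array each.

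In all mitosis genes but Sass6 and Ttk, the 2 dDAVP arrays and the 2 vehicle arrays lay further apart than the means of these groups did. In 19 of the 20, all but Sass6, vehicle replicate 1 and dDAVP replicate 2 were the lowest of the 6 arrays, an order seen in 6 of the 15 replication genes and in 12.7% of all genes. The highest array exceeded the lowest at least 2-fold in 17 mitosis and 5 replication genes, against 3.4% of all genes, and at least 4-fold in 7 mitosis genes and 1 replication gene, against 0.381%. The median gap between the 2 arrays of a group over the mitosis genes was 0.30 log2 in withdrawal, 0.98 (1.97-fold) in dDAVP and 1.26 (2.40-fold) in vehicle. Over all genes the median gap was 0.10, 0.13 and 0.15 in the same order. All 20 mitosis genes were higher in dDAVP replicate 1 than in dDAVP replicate 2, against 5509 of all 14168 genes. All 20 were also higher in vehicle replicate 2 than in vehicle replicate 1, against 5952 of all 14168 genes.

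Relative to each gene's mean of the 6 arrays, the mitosis genes had medians of 0.77 and 0.33 log2 in withdrawal, 0.11 and -0.86 in dDAVP and -0.76 and 0.49 in vehicle, replicate 1 given before replicate 2. The replication genes had 0.20 and 0.18 in withdrawal, -0.18 and -0.27 in dDAVP and -0.16 and 0.21 in vehicle. The pattern of the mitosis genes stayed after cyclic loess, which evens out brightness between arrays: 27 of the 35 members, 19 of them mitosis genes, then had vehicle replicate 1 and dDAVP replicate 2 lowest, against 15.4% of all genes. Withdrawal replicate 1 was the highest array for 16 of 20 mitosis genes, against 17.3% of all genes, and dDAVP replicate 2 the lowest for 18, against 22.3%.

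**Figure D2:**
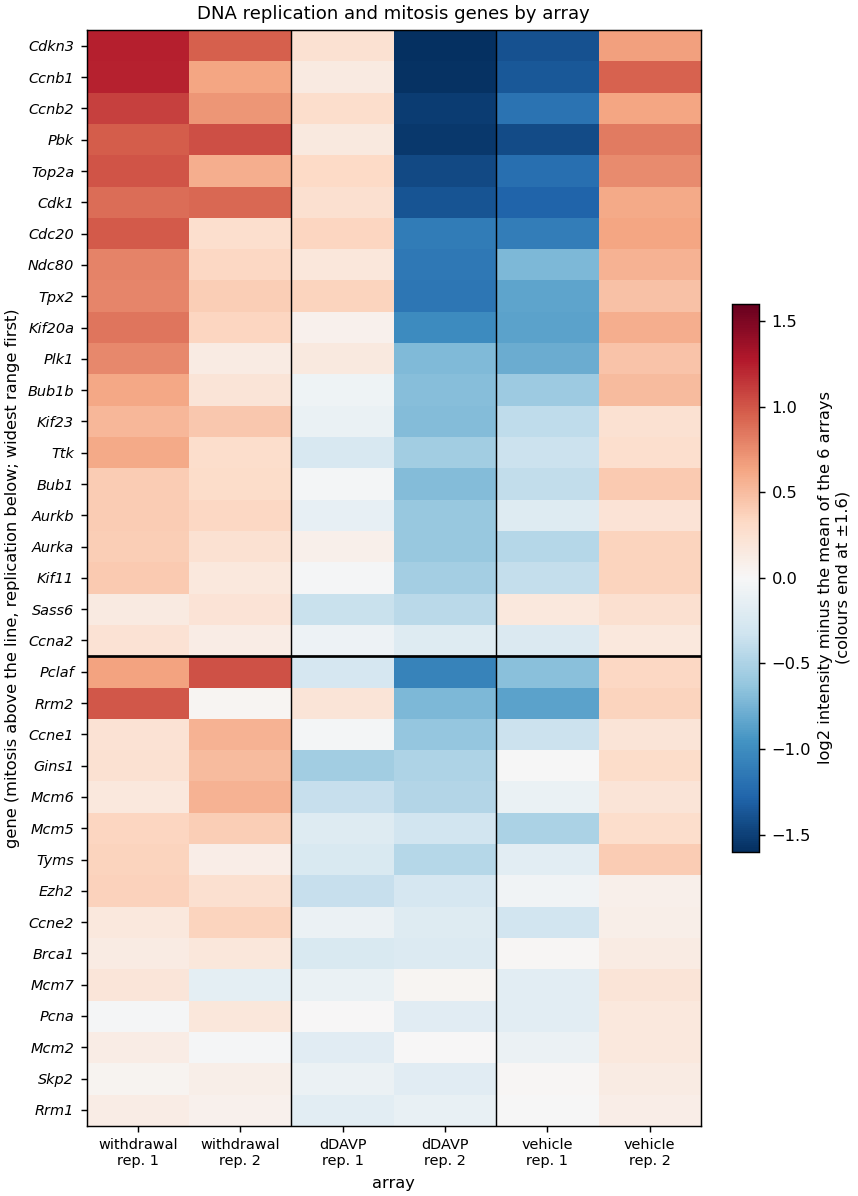
Log2 intensity of the 35 members (rows, mitosis above the line and replication below) on the 6 arrays (columns, withdrawal, dDAVP, vehicle), as the difference from each gene's mean of the 6 arrays. Most mitosis rows are low in dDAVP replicate 2 and vehicle replicate 1, with medians of -0.86 and -0.76. They are high in both withdrawal arrays, with medians of 0.77 and 0.33, and in vehicle replicate 2, with a median of 0.49.

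Markers of other cells also differed between the arrays. Of 10 genes of macrophages, monocytes and neutrophils, 6 had vehicle replicate 1 and dDAVP replicate 2 lowest, against 12.7% of all genes, and the summed intensity of all 10 was 7681 and 7689 in withdrawal, 8515 and 5930 in dDAVP and 6031 and 8749 in vehicle. Cd68, a lysosomal protein of macrophages, lay at 10.18 and 10.12 in withdrawal, 10.14 and 9.29 in dDAVP and 9.33 and 10.39 in vehicle. The same order held for 3 of 10 collecting duct markers, Slc14a2 (a urea transporter) among them, and 3 of 12 of fibroblasts. It also held for 2 of 8 of papillary surface epithelium and urothelium. Among pericyte and smooth muscle markers it held for 1 of 7, and among erythroid markers for 1 of 4. Of the 6 loop of Henle markers it held for 1, again Slc14a2, which stood in both lists. It held for 0 of 6 intercalated, 0 of 8 cortex, 0 of 8 endothelial, 0 of 10 T and NK and 0 of 4 B and plasma cell markers. The part of these cells in the differences of the mitosis genes was not tested.

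Collecting duct markers summed to 33539 and 29528 in withdrawal, 33071 and 30516 in dDAVP and 29403 and 33049 in vehicle. Intercalated cell markers summed to 3399 and 1958 in withdrawal, 3280 and 2396 in dDAVP and 1384 and 3216 in vehicle. B and plasma cell markers summed to 1859 and 2063 in withdrawal, 1944 and 1804 in dDAVP and 1633 and 2136 in vehicle. The pair was thus lowest in sum, but Blnk, the brightest of the 4 at 10.26 to 10.67, weighed most in it. Endothelial markers were highest in the pair, at 11039 in dDAVP replicate 2 and 10740 in vehicle replicate 1, against 7862 to 9530 in the others. T and NK cell markers were highest in vehicle replicate 1, at 3941, against 2299 to 3122. Sums over the 6 arrays ran from 1030 to 1267 for cortex, 10996 to 14309 for the loop of Henle, 11170 to 13049 for fibroblasts, 1552 to 1970 for pericytes and smooth muscle, 1137 to 1532 for papillary surface epithelium and urothelium and 753 to 1107 for erythroid cells.

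Among the mitosis genes those of the core engine of CDK1 and cyclin B had ranges among the widest. Cdk1 lay at 9.54 and 9.56 in withdrawal, 8.90 and 7.26 in dDAVP and 7.37 and 9.25 in vehicle. Its withdrawal arrays were above all others, and the dDAVP and vehicle arrays interleaved. Ccnb1, cyclin B1, lay at 9.82 and 9.22 in withdrawal, 8.73 and 7.0 in dDAVP and 7.24 and 9.53 in vehicle. Ccnb2, cyclin B2, lay at 9.75 and 9.36 in withdrawal, 8.93 and 7.13 in dDAVP and 7.47 and 9.29 in vehicle, and its other probe set gave the same order. Both cyclins had 1 high and 1 low array in dDAVP and in vehicle, and the high vehicle array reached into the withdrawal range for Ccnb1. Cdkn3, a phosphatase that acts on cyclin-dependent kinases, had the widest range of all members, 7.64-fold, with 9.62 and 9.34 in withdrawal, 8.62 and 6.69 in dDAVP and 6.99 and 9.04 in vehicle. Ccna2, cyclin A2, which acts in S phase and in early mitosis, lay at 7.89 and 7.78 in withdrawal, 7.59 and 7.46 in dDAVP and 7.44 and 7.83 in vehicle, the narrowest range among the mitosis genes.

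Of the mitotic kinases, Plk1 and Aurkb were followed array by array. Plk1, the Polo kinase, lay at 8.38 and 7.74 in withdrawal, 7.78 and 6.90 in dDAVP and 6.82 and 8.07 in vehicle. Aurkb, the kinase of the chromosomal passenger complex, lay at 7.92 and 7.85 in withdrawal, 7.38 and 6.90 in dDAVP and 7.31 and 7.73 in vehicle. For Aurkb both withdrawal arrays exceeded every other array, while for Plk1 the groups overlapped. Aurka, the spindle pole kinase, its activator Tpx2, and Pbk, a kinase expressed in mitosis, ranged over the 6 arrays from 7.35 to 8.35, 6.88 to 8.81 and 6.38 to 8.95.

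Checkpoint, motor and chromosome genes followed. Bub1, a kinetochore checkpoint kinase, lay at 7.58 and 7.47 in withdrawal, 7.14 and 6.48 in dDAVP and 6.78 and 7.59 in vehicle. Ttk, which starts the spindle checkpoint, lay at 7.66 and 7.35 in withdrawal, 6.80 and 6.50 in dDAVP and 6.71 and 7.33 in vehicle. Cdc20, the activator of the anaphase-promoting complex, lay at 9.43 and 8.72 in withdrawal, 8.79 and 7.33 in dDAVP and 7.35 and 9.08 in vehicle. Of these, Ttk alone had both withdrawal arrays above every other array. Bub1b, another checkpoint component, ranged from 6.23 to 7.53 and Ndc80, a microtubule anchor of the kinetochore, from 6.53 to 8.47. Both were lowest in dDAVP replicate 2. Kif11, the motor that separates the spindle poles, lay at 7.50 and 7.25 in withdrawal, 7.06 and 6.54 in dDAVP and 6.70 and 7.44 in vehicle. Kif23, a motor of the central spindle, lay at 8.08 and 7.99 in withdrawal, 7.45 and 6.86 in dDAVP and 7.14 and 7.81 in vehicle, and Kif20a, another motor of late mitosis, ranged from 6.51 to 8.37. Top2a, the topoisomerase that disentangles sister chromatids, lay at 9.28 and 8.86 in withdrawal, 8.59 and 6.83 in dDAVP and 7.07 and 9.03 in vehicle. In each of these genes dDAVP replicate 2 or vehicle replicate 1 was the lowest array.

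Sass6, a scaffold of the new centriole, differed from the other mitosis genes. It lay at 7.80 and 7.87 in withdrawal, 7.29 and 7.22 in dDAVP and 7.83 and 7.91 in vehicle. Both dDAVP arrays were below all others, and the gap between the arrays of a group was at most 0.08 log2.

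**Figure D3:**
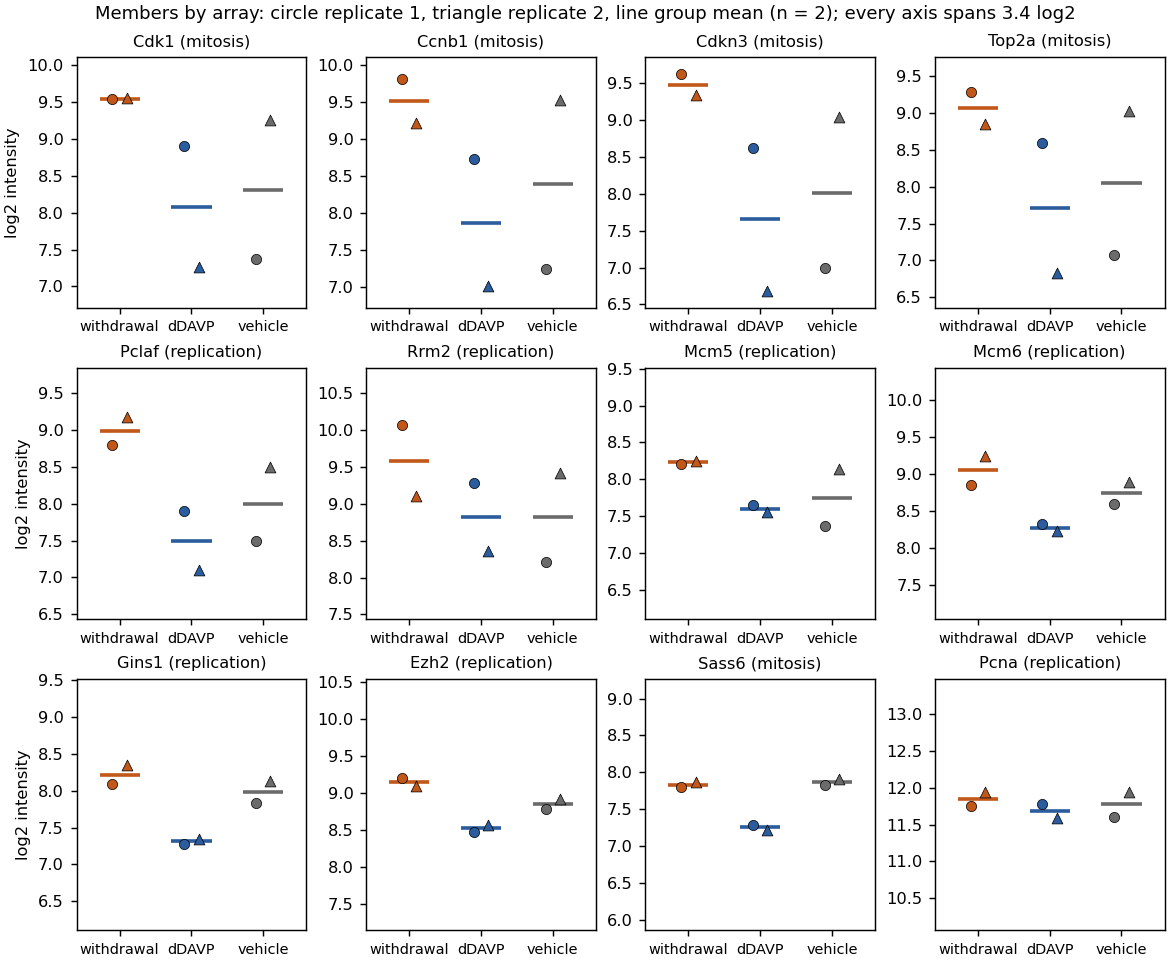
Log2 intensity (vertical axis, each spanning 3.4 log2) of 12 members on each array, with withdrawal, dDAVP and vehicle from left to right, circles for replicate 1, triangles for replicate 2 and lines for the mean of 2 arrays. Cdk1, Ccnb1, Cdkn3 and Top2a split within dDAVP and within vehicle, while Gins1, Mcm6, Ezh2 and Sass6 have both dDAVP arrays lowest.

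The replication genes had narrower ranges, with a median of 0.73 log2 (1.66-fold) over the 6 arrays against 1.71 (3.28-fold) for the mitosis genes and 0.37 (1.29-fold) for all genes. Among the helicase genes, Mcm6 lay at 8.86 and 9.25 in withdrawal, 8.32 and 8.22 in dDAVP and 8.59 and 8.90 in vehicle. Gins1, the GINS subunit that helps to activate the helicase, lay at 8.08 and 8.35 in withdrawal, 7.28 and 7.35 in dDAVP and 7.83 and 8.13 in vehicle. In both genes the dDAVP arrays were the lowest and the gap within dDAVP was at most 0.10 log2. Mcm2, another subunit, lay at 8.54 and 8.40 in withdrawal, 8.24 and 8.43 in dDAVP and 8.32 and 8.59 in vehicle, with all 3 groups overlapping. Mcm5 ranged from 7.36 to 8.25 and Mcm7 from 9.68 to 10.05.

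Of the clamp genes, Pcna lay at 11.76 and 11.95 in withdrawal, 11.77 and 11.59 in dDAVP and 11.61 and 11.94 in vehicle, and its groups overlapped. Pclaf, a PCNA-binding factor, lay at 8.80 and 9.18 in withdrawal, 7.90 and 7.09 in dDAVP and 7.49 and 8.50 in vehicle, with the order of the mitosis genes and a 4.25-fold range. Among the genes of nucleotide supply, Rrm2, the cell-cycle-regulated subunit of ribonucleotide reductase, lay at 10.06 and 9.10 in withdrawal, 9.28 and 8.35 in dDAVP and 8.22 and 9.42 in vehicle, an order shared by its other probe set. Tyms, thymidylate synthase, lay at 8.70 and 8.45 in withdrawal, 8.10 and 7.88 in dDAVP and 8.18 and 8.75 in vehicle, with both dDAVP arrays lowest. Rrm1, the large reductase subunit, ranged from 10.07 to 10.36. Its other probe set, dimmer with a mean of 7.56, gave a smaller difference in dDAVP against vehicle, -0.04 against -0.19 log2.

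The cyclins E, which start S phase with CDK2, were lowest in the pair of arrays that stood apart. Ccne1 lay at 7.77 and 8.10 in withdrawal, 7.50 and 6.91 in dDAVP and 7.19 and 7.75 in vehicle. Ccne2 lay at 8.17 and 8.36 in withdrawal, 7.91 and 7.79 in dDAVP and 7.69 and 8.09 in vehicle. For both cyclins E the withdrawal arrays were the highest of the 6. Skp2, the ubiquitin ligase subunit that removes the CDK inhibitor p27, lay at 7.65 and 7.70 in withdrawal, 7.52 and 7.43 in dDAVP and 7.63 and 7.74 in vehicle. Brca1, of DNA repair, lay at 6.92 and 6.96 in withdrawal, 6.54 and 6.57 in dDAVP and 6.80 and 6.92 in vehicle. Ezh2, the histone methyltransferase of Polycomb, lay at 9.21 and 9.09 in withdrawal, 8.48 and 8.57 in dDAVP and 8.79 and 8.92 in vehicle. Both dDAVP arrays were the lowest for Skp2, Brca1 and Ezh2, with a gap within dDAVP of at most 0.09 log2.

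Infusion of dDAVP for 5 d was first set against vehicle. No member and no other gene passed limma's test at a Benjamini-Hochberg adjusted p under 0.05 (0 of 14168 genes, 0%), and the smallest adjusted p was 0.549. At an unadjusted p under 0.05, 5 of the 35 members were lower in dDAVP (Gins1, Mcm6, Brca1, Ezh2 and Sass6), against 6.85% of all genes, and 0 were higher, against 0.572%. Both dDAVP arrays lay below both vehicle arrays in 8 of 35 members (Mcm6, Gins1, Rrm1, Tyms, Skp2, Brca1, Ezh2 and Sass6), against 40.6% of all genes, and they were the lowest of all 6 arrays in the same 8, against 33.6%. The 8 were 7 of 15 replication genes and 1 of 20 mitosis genes. After cyclic loess both dDAVP arrays were lowest in 6 of 35 members, 5 of them replication genes, against 8.21% of all genes.

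The means of Sass6 were 7.26 ± 0.05 in dDAVP and 7.87 ± 0.06 in vehicle (SD, 2 arrays each). The difference was -0.61 ± 0.09 log2 (SE), or 0.66 times the vehicle level, and -0.46 after loess. Gins1 averaged 7.31 ± 0.05 in dDAVP and 7.98 ± 0.21 in vehicle, a difference of -0.67 ± 0.14, and of -0.54 after loess. These gaps exceeded the spread within each group, while their adjusted p in limma was 0.549. Differences were -0.47 ± 0.17 for Mcm6, -0.47 ± 0.20 for Tyms, -0.33 ± 0.10 for Ezh2 and -0.30 ± 0.09 for Brca1, against -0.41, -0.39, -0.27 and -0.14 after loess. Brca1 was among the dimmest 25% of genes. Its unadjusted p in limma was 0.016 as deposited, 0.213 after loess and 0.093 with array medians subtracted. For Ezh2 these were 0.017, 0.018 and 0.070, while Gins1 and Sass6 stayed under 0.05 in all 3. The remaining mitosis genes with the smallest unadjusted p were Aurkb (-0.38 ± 0.20) and Ttk (-0.37 ± 0.23), and their groups overlapped. These 2 values were -0.59 and -0.68 without vehicle replicate 1, -0.17 and -0.06 without vehicle replicate 2, -0.61 and -0.53 without dDAVP replicate 1 and -0.14 and -0.22 without dDAVP replicate 2. For Ccnb1 the difference of -0.52 ± 0.84 was smaller than its standard error.

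All 35 members had a difference below 0 in dDAVP against vehicle, but so did 11030 of all 14168 genes, and 7119 after loess. The median over all genes was also below 0, at -0.11 log2, and moved to 0.00 after loess. The median was -0.33 for the mitosis genes and -0.21 for the replication genes, against -0.19 and -0.10 after loess, when 31 of 35 stayed below 0 and Rrm2, Ccne2, Ccna2 and Plk1 turned above it. With array medians subtracted 18 of 20 mitosis genes and 11 of 15 replication genes were below 0. The sign for the mitosis genes depended on the arrays. Their median was -0.88 without vehicle replicate 1 and -0.79 without dDAVP replicate 1, but 0.31 without vehicle replicate 2 and 0.23 without dDAVP replicate 2. Without both vehicle replicate 1 and dDAVP replicate 2 it was -0.38, with -0.35 for the replication genes and -0.11 for all genes. That set 1 dDAVP array against 1 vehicle array.

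Withdrawal for 3 h was then set against dDAVP, which uses the same dDAVP arrays, so these differences are not independent of those above. Again 0 of 14168 genes passed at an adjusted p under 0.05 (0%), and the smallest adjusted p in limma was 0.260, shared by several members. At an unadjusted p under 0.05, 14 of 35 members were higher in withdrawal, 10 of replication and 4 of mitosis (Aurkb, Ttk, Kif23 and Sass6), against 17.3% of all genes, and 0 were lower, against 1.64%. Both withdrawal arrays lay above both dDAVP arrays in 29 of 35 members, against 49.6% of all genes. The 6 members that overlapped were Mcm2, Mcm7, Pcna, Rrm2, Plk1 and Cdc20.

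Gins1 averaged 8.22 ± 0.19 in withdrawal and 7.31 ± 0.05 in dDAVP (SD, 2 arrays each), a difference of 0.90 ± 0.14 log2 (1.87-fold). Ezh2 differed by 0.63 ± 0.10 (1.55-fold), Mcm6 by 0.78 ± 0.17 (1.72-fold) and Sass6 by 0.58 ± 0.09 (1.49-fold), and all 4 had an adjusted p of 0.260 in limma. Their values after loess were 0.77, 0.59, 0.73 and 0.42. Among the mitosis genes Aurkb differed by 0.74 ± 0.20 and Ttk by 0.85 ± 0.23, also at an adjusted p of 0.260.

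Larger differences came with larger errors. Cdkn3 differed by 1.83 ± 0.81 log2 (3.55-fold), Ccnb1 by 1.65 ± 0.84 (3.14-fold) and Cdk1 by 1.47 ± 0.72 (2.76-fold), with an adjusted p in limma of 0.270, 0.302 and 0.292. Without dDAVP replicate 2 the difference of Ccnb1 was 0.79 and that of Cdk1 was 0.64, and without dDAVP replicate 1 they were 2.52 and 2.29. Mcm2 and Pcna differed least among the genes followed array by array, by 0.14 ± 0.13 and 0.17 ± 0.15, beside Mcm7 at 0.05 ± 0.17.

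All 35 members had a difference above 0 in withdrawal against dDAVP, also after loess. Of all 14168 genes 10616 did as deposited and 7206 after loess. With array medians subtracted all 20 mitosis genes and 14 of 15 replication genes did, the exception being Mcm7. The median was 0.93 log2 for the mitosis genes and 0.59 for the replication genes, against 0.14 for all genes. After loess the medians were 0.79, 0.49 and 0.00. Without vehicle replicate 1 and dDAVP replicate 2 they were 0.49, 0.40 and 0.17 as deposited, and all 35 members stayed above 0. Without dDAVP replicate 1 the mitosis median was 1.39.

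**Figure D4:**
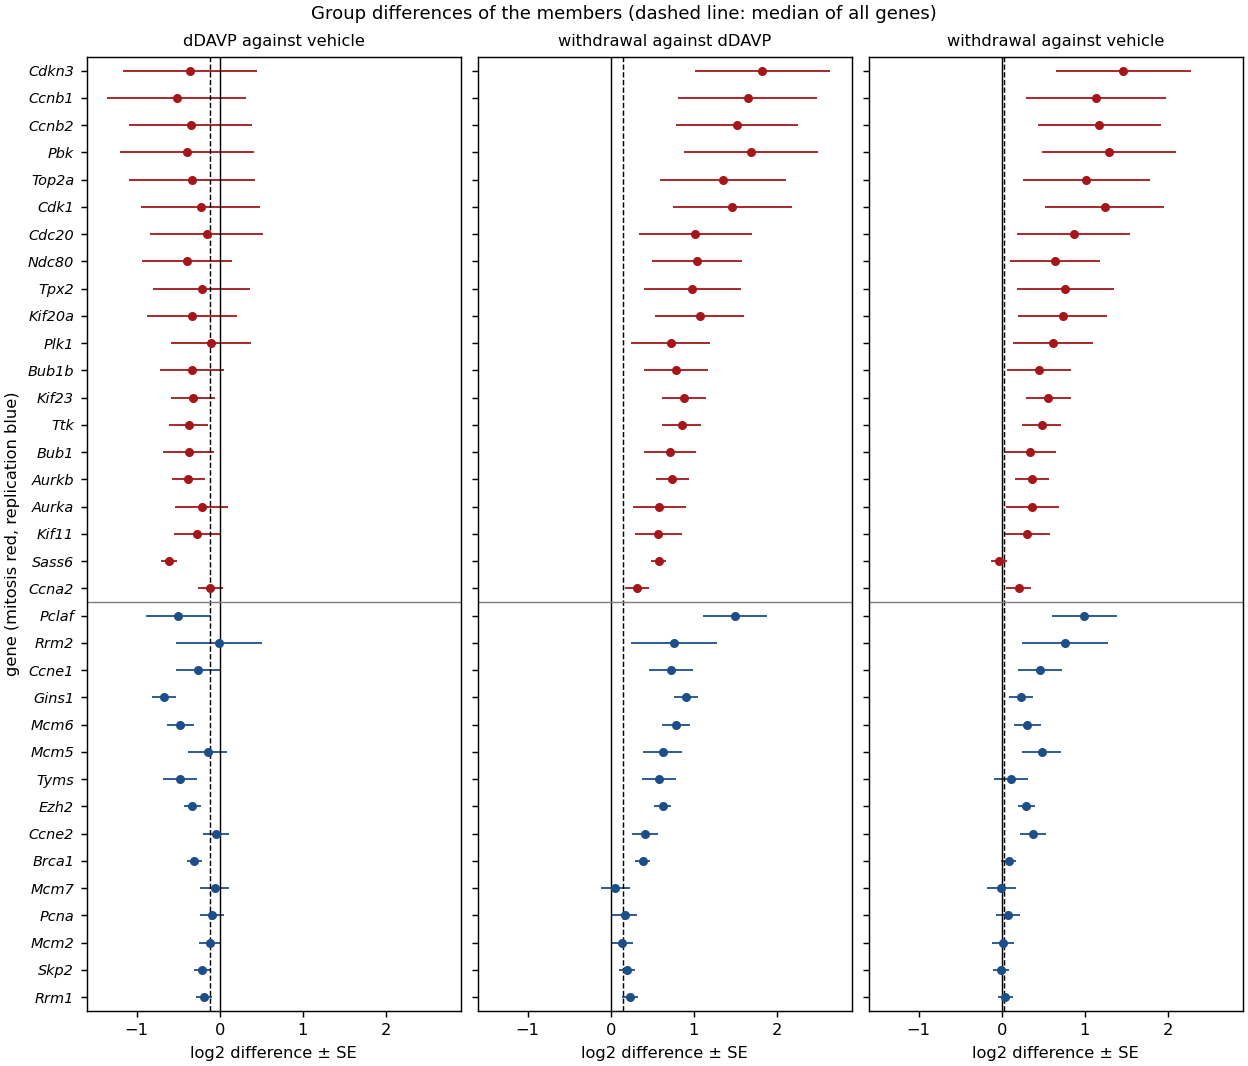
Log2 differences ± SE from limma (horizontal axes) of the 35 members (rows, mitosis in red above and replication in blue below) for dDAVP against vehicle, withdrawal against dDAVP and withdrawal against vehicle, with the median of all genes dashed. In withdrawal against dDAVP all 35 points lie above 0, the mitosis genes with the longest error bars. Of all 14168 genes 10616 had a difference above 0 in that comparison.

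Withdrawal was last set against vehicle, which shares arrays with both comparisons above. No gene passed (0 of 14168, 0%), and the smallest adjusted p in limma was 0.995. At an unadjusted p under 0.05, Pclaf and Ezh2, 2 of 35 members, were higher in withdrawal, against 0.642% of all genes, and 0 were lower, against 1.14%. Pclaf differed by 1.00 ± 0.39 log2 (2.00-fold), Ezh2 by 0.30 ± 0.10 and Ccne2 by 0.37 ± 0.16. Without vehicle replicate 1 these were 0.50, 0.23 and 0.18. The mitosis genes with the smallest unadjusted p were Kif23 at 0.56 ± 0.27, Ttk at 0.48 ± 0.23 and Aurkb at 0.37 ± 0.20, which were 0.23, 0.17 and 0.16 without vehicle replicate 1. Both withdrawal arrays lay above both vehicle arrays in 13 of 35 members, against 17.6% of all genes. In the same 13 they were the highest of all 6 arrays, against 14.7% of all genes.

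The differences of Sass6, at -0.03 ± 0.09, and Mcm7, at -0.00 ± 0.17, were smaller than their standard errors. The median difference of withdrawal against vehicle was 0.63 log2 for the mitosis genes and 0.23 for the replication genes, against 0.03 for all genes, and loess gave 0.62 and 0.23. Without vehicle replicate 1 the medians were 0.02 for mitosis and 0.09 for replication, against 0.04 for all genes, and 13 of 20 mitosis genes and 9 of 15 replication genes were above 0. Without vehicle replicate 2 the mitosis median was 1.26.

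Other genes of the same processes were counted from longer lists. Of 43 further replication and S phase genes measured, 9 were lower in dDAVP than in vehicle at an unadjusted p under 0.05 and 16 were higher in withdrawal than in dDAVP, against 6.85% and 17.3% of all genes. In the opposite directions there were 0, against 0.572% and 1.64% of all genes, and none passed the adjusted threshold. The 0 in 43 is near those shares. Prim1 and Pola1, of the primase complex, and Rfc2, a clamp loader subunit, differed by -0.56 ± 0.11, -0.38 ± 0.10 and -0.47 ± 0.12 log2 in dDAVP against vehicle. Mcm10, Cdt1 and Orc1, of origin licensing and firing, differed by 0.53 ± 0.10, 0.66 ± 0.14 and 0.45 ± 0.10 in withdrawal against dDAVP. In withdrawal against vehicle Mcm10, Orc1 and Prim1 differed by 0.27 ± 0.10, 0.24 ± 0.10 and -0.25 ± 0.11. The list medians were -0.22 in dDAVP against vehicle, 0.30 in withdrawal against dDAVP and 0.11 in withdrawal against vehicle.

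Of 36 further mitosis genes, 4 were lower in dDAVP than in vehicle and 21 higher in withdrawal than in dDAVP by the same count, against 6.85% and 17.3% of all genes, with medians of -0.25, 0.60 and 0.32 in the 3 comparisons. Vehicle replicate 1 and dDAVP replicate 2 were the lowest arrays in 24 of the 36, and in 11 of the 43 replication genes, against 12.7% of all genes. Smc2, a condensin subunit, Foxm1, a transcription factor of mitotic genes, and Incenp, of the passenger complex, differed by -0.47 ± 0.12, -0.24 ± 0.09 and -0.24 ± 0.10 in dDAVP against vehicle. Mybl2, the B-MYB partner of MuvB, Cenpn, of the centromere, and Kif20b differed by 0.37 ± 0.09, 0.41 ± 0.10 and 0.77 ± 0.19 in withdrawal against dDAVP. In withdrawal against vehicle the smallest unadjusted p belonged to Cenpn, Cenpk and Cep55, at 0.22 ± 0.10, 0.58 ± 0.28 and 0.49 ± 0.25.

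**Figure D5:**
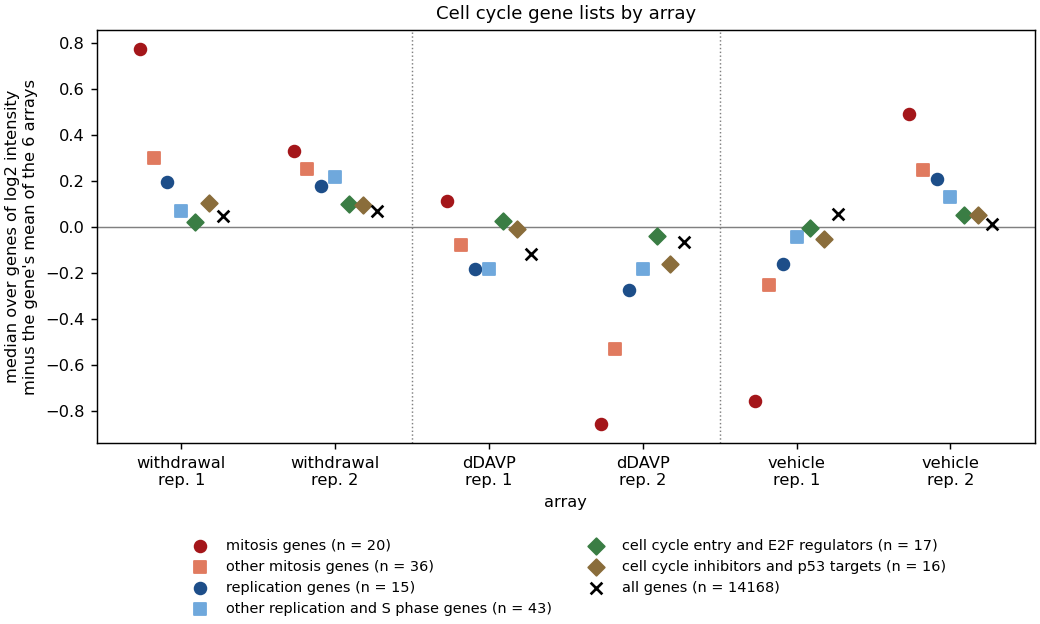
Median over the genes of each cell cycle list of the log2 intensity minus the gene's mean of the 6 arrays (vertical axis) on each array (horizontal axis, withdrawal, dDAVP, vehicle). The mitosis genes span -0.86 to 0.77, the replication genes -0.27 to 0.21, and the regulators of entry -0.04 to 0.10.

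Regulators of entry had medians nearer to 0 on each array than the mitosis genes. Vehicle replicate 1 and dDAVP replicate 2 were the lowest arrays in 5 of the 17 measured, against 12.7% of all genes. Over 17 measured cyclin D, CDK, E2F, MuvB and Myc genes the medians were -0.04 in dDAVP against vehicle, 0.14 in withdrawal against dDAVP and 0.01 in withdrawal against vehicle, beside -0.11, 0.14 and 0.03 for all genes. At an unadjusted p under 0.05, 2 were lower in dDAVP than in vehicle, 3 higher in withdrawal than in dDAVP and 1 lower in withdrawal than in vehicle, against 6.85%, 17.3% and 1.14% of all genes. The share of 3 in 17 is near that of all genes. In dDAVP against vehicle Mycn, E2f7 and Cdk6 differed by -0.33 ± 0.12, -0.27 ± 0.11 and -0.37 ± 0.18. In withdrawal against dDAVP E2f7, E2f1 and Mycn differed by 0.35 ± 0.11, 0.45 ± 0.16 and 0.31 ± 0.12. In withdrawal against vehicle Ccnd2, Myc and E2f3 differed by -0.51 ± 0.20, 0.83 ± 0.41 and 0.24 ± 0.14. The vehicle arrays lay at 10.08 and 9.46 for Ccnd2 and at 7.46 and 8.36 for Myc. In both genes they were further apart than the group means.

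Over 16 measured cell cycle inhibitors and p53 targets the medians were -0.03, 0.16 and 0.14 in the same order of comparisons. Vehicle replicate 1 and dDAVP replicate 2 were the lowest arrays in 4 of the 16, against 12.7% of all genes. By the unadjusted count 1 was higher in dDAVP than in vehicle, against 0.572% of all genes, and 3 were higher and 1 lower in withdrawal than in dDAVP, against 17.3% and 1.64%. The share of 3 in 16 is near that of all genes. Cdkn1a, the CDK inhibitor p21, lay at 8.81 and 10.08 in withdrawal, 7.68 and 7.85 in dDAVP and 8.08 and 9.32 in vehicle, and differed by 1.68 ± 0.51 log2 in withdrawal against dDAVP. Its 2 vehicle arrays were themselves far apart, and so were its withdrawal arrays. Gadd45a, a stress-induced gene, and Cdkn2b, a CDK4 inhibitor, differed by 0.58 ± 0.14 and 0.37 ± 0.11 in withdrawal against dDAVP. In dDAVP against vehicle they differed by -0.33 ± 0.14 and -0.24 ± 0.11, and Ccng1 differed by 0.73 ± 0.28. Ccng1 lay at 11.65 and 11.35 in dDAVP and 10.33 and 11.21 in vehicle. Its vehicle arrays thus lay further apart than the means of these groups did. In withdrawal against vehicle the kinases Pkmyt1 and Wee1, which hold CDK1 inactive, differed by 0.31 ± 0.14 and -0.23 ± 0.12, and Gadd45a by 0.25 ± 0.14.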

How the data were processed

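RNA of 6 samples of rat kidney inner medulla was hybridised to whole-transcript arrays. Per the submitters' processing notes the authors used RMA. They deposited 1 intensity per probe set and array, on a linear scale (30.2 to 10778.7). For the RMA version and the genome build, the entry is: not given in the sources used here. RMA evens out arrays, so a change shared by most genes would be reduced. The median intensities as deposited still ran from 156 in dDAVP replicate 1 to 182 in vehicle replicate 1. Counts on the values as deposited therefore include a remaining difference in brightness between arrays. Detection calls and scan dates were not used here, so the signal over background is unknown and no batch could be looked for. The design had assumed log2 values.

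The log2 of each intensity was taken from the deposited table. Of 28524 probe sets 14947 had 1 symbol, 318 several and 13259 were not listed in the annotation. Entrez numbers of 14916 were found in RefSeq GRCr8, and 0 symbols were changed. The probe set with the highest mean was used for each of 14168 genes (509 had more than 1), with no filter on dim genes. limma 3.58.1 in R 4.3.3 fitted 1 mean per group over all 6 arrays (3 residual and 3.21 prior degrees of freedom). Tests were two-sided with Benjamini-Hochberg adjustment over all genes in each of 3 comparisons, and the fit was tested on simulated data. Cyclic loess, subtracted array medians, a filter on the dimmest 25% of genes, averaged probe sets, 4 arrays at a time, an intensity trend, blocks and left-out arrays were the alternatives.

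The members and all lists were chosen with earlier results of these data known. Besides the counts over all members, genes were named by rule: a set of members with leading roles, the 3 of each class and of each other cell cycle list with the smallest unadjusted p in each comparison, and tissue markers. Cdkn3, Mcm7 and the members given by their range, as well as Cd68, were chosen after their values were seen. Promoters came from RefSeq and were matched by symbol, and Cdkn3 has 2 windows. Replicate numbers were not used to pair arrays: deviations of same-numbered arrays correlated across genes at -0.62 in dDAVP against vehicle, -0.11 in withdrawal against dDAVP and -0.00 in withdrawal against vehicle.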

Additional observations from a re-analysis of the deposited data

How the results depend on the processing

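No gene passed an adjusted p under 0.05 in limma in any comparison under loess, subtracted array medians, the filter on dim genes, averaged probe sets, 4 arrays, the intensity trend or the replicate block. With the replicate block the count of genes was 0 in each comparison, at an unadjusted p under 0.05 490 genes in dDAVP against vehicle, 1518 in withdrawal against dDAVP and 128 in withdrawal against vehicle, and the block changed no call. With all arrays and no block those unadjusted counts were 1052, 2686 and 253. They were 460, 922 and 298 after loess, 495, 1266 and 264 with array medians subtracted, and 488, 1191 and 161 without the dimmest genes. In the same order they were 641, 2919 and 411 with 4 arrays and 1651, 3464 and 303 with the trend. A block that crossed the replicate numbers was added after seeing the data, because same-numbered arrays deviated in opposite directions. It was fitted on the 4 arrays of the groups compared. The block was chosen from the same values that it then tested, so its calls carry no weight for the members. It gave 43 of 14168 genes past the adjusted threshold in dDAVP against vehicle, 2 of them members, and 0 in withdrawal against dDAVP. Leaving out each array in turn gave 0 to 2 genes in both of these comparisons, with 2 without dDAVP replicate 1, neither of them a member, and 0 in withdrawal against vehicle. It moved the median of the replication genes between -0.40 and 0.0027 in dDAVP against vehicle and between 0.40 and 0.59 in withdrawal against dDAVP, where it was also 0.40 without vehicle replicate 1 and dDAVP replicate 2 together. The medians of the mitosis genes ranged from -0.88 to 0.31, 0.49 to 1.39 and 0.02 to 1.26. The 6, 10 and 6 members tested by name kept their direction in all 83, 140 and 84 values. The crossed block was not among these values. Most of these members were named for the smallest unadjusted p in the same comparison, so their kept direction does not speak for the other members. In dDAVP against vehicle without vehicle replicate 2, 17 of 20 mitosis genes and 8 of 15 replication genes were above 0. The number of arrays, 2 a group, limits the precision of every value.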
